A study of Canis lupus familiaris with 18 samples.

Results

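The enzymes, transporters and inhibitors that set how much phosphate and pyrophosphate bone-forming cells hold around them were described in canine bone tumours, beginning with ALPL, the gene of tissue-nonspecific alkaline phosphatase. The 10 genes considered were ALPL, PHOSPHO1, SMPD3, ENPP1, ANKH, SLC20A1, SLC20A2, MGP, GPLD1 and ALPI. Every probe set that the platform annotation gave to exactly 1 of these symbols was taken, which gave 18 probe sets for 9 of the 10 genes, out of 42924 probe sets other than controls and 15115 gene symbols. No probe set was listed for MGP, an inhibitor of calcification, which was not analysed here. Of the 18 probe sets, 13 passed a filter on low signal and 5 lay below it (both of the weaker ANKH probe sets, 2 of the 4 for SLC20A2, and that for ALPI).

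Gene expression had been measured in 18 primary osteosarcomas of dogs, malignant bone tumours whose cells lay down bone matrix, with 1 Affymetrix canine array per tumour. Of the tumours, 9 came from dogs with an increased and 9 from dogs with a normal serum concentration of alkaline phosphatase (ALP), an enzyme activity that reaches the blood mainly from bone and liver. All tissue was tumour tissue that had been snap frozen when it was taken, and no normal bone or other control tissue was part of the design. Nothing in the labels gives the dogs' breed, age, tumour subtype or treatment, and each array holds RNA from a mixture of cells, so fewer cells of a type and less RNA per cell cannot be told apart.

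Mineral forms where phosphate is plentiful and pyrophosphate, which blocks crystal growth, is scarce. ENPP1 makes pyrophosphate outside the cell and ANKH supplies it from inside, while ALPL splits it and so both removes an inhibitor and frees phosphate. Inside matrix vesicles, the small particles that osteoblasts shed and where the first crystals form, PHOSPHO1 frees phosphate from phosphocholine, which SMPD3 releases from the membrane lipid sphingomyelin. SLC20A1 and SLC20A2 carry phosphate into cells, GPLD1 cuts the lipid anchor by which ALPL is held on the cell surface, and ALPI is the intestinal alkaline phosphatase.

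All values below are log2(signal + 16), a scale on which 1 unit is a doubling for bright probe sets and which understates the change of dim ones. Differences are increased minus normal ALP. The median log2 value of an array, as deposited, was 6.25 to 6.31, and arrays ranked probe sets alike (rank correlations 0.928 to 0.98). The osteoblast genes COL1A1 (type I collagen) and SPARC (osteonectin) were bright in every tumour, at 12.75 to 14.88 and 13.52 to 14.43, and all 8 osteoblast markers with a probe set passed the filter. Increased ALP replicates 3 and 6 stood apart by their BioB spike-in signal, at 10.63 and 10.10, against 8.65 to 9.42 in the 9 tumours with normal ALP. The difference between the 3' and middle probe sets of actin, which grows as RNA breaks down, had a median of 1.76 (1.44 to 2.17) with increased ALP and 1.40 (1.19 to 1.76) with normal ALP, and it correlated with the group at 0.667.

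Over the 18 tumours ALPL varied more than most probe sets tested, and its range was wide in both serum ALP groups. At its brighter probe set, an _s_at probe set whose probes can match more than 1 transcript, the lowest, median and highest values were 6.50, 12.01 and 13.53 with increased ALP, against 8.54, 11.76 and 13.57 with normal ALP. The groups overlapped over nearly the whole range, and the signal spanned 163-fold over all 18 tumours, against a lowest value that lay close to the filter (6.15). The standard deviation over the 18 tumours was 1.89, at percentile 99.6 of the 25754 probe sets tested. The 4 tumours lowest in ALPL were increased ALP replicate 2 (6.50), normal ALP replicate 3 (8.54), increased ALP replicate 1 (8.57) and increased ALP replicate 7 (9.97), and the next tumour stood at 11.03. Each group thus held tumours at both ends of the scale, and the highest values, 13.53 in increased ALP replicate 4 and 13.57 in normal ALP replicate 5, were almost equal.

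The dimmer ALPL probe set ranked the tumours alike. Its values were 6.10, 9.18 and 10.75 with increased ALP, against 6.03, 8.39 and 11.02 with normal ALP, again with full overlap. Both probe sets gave r = 0.86 and rho = 0.94 with each other over the 18 tumours (permutation p = 1e-05 for each, the smallest that 100000 permutations can give; adjusted p = 3.5e-05 over 14 pairs of probe sets of 1 gene). Without the 2 tumours farthest from the median, r remained 0.86.

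**Figure D1:**
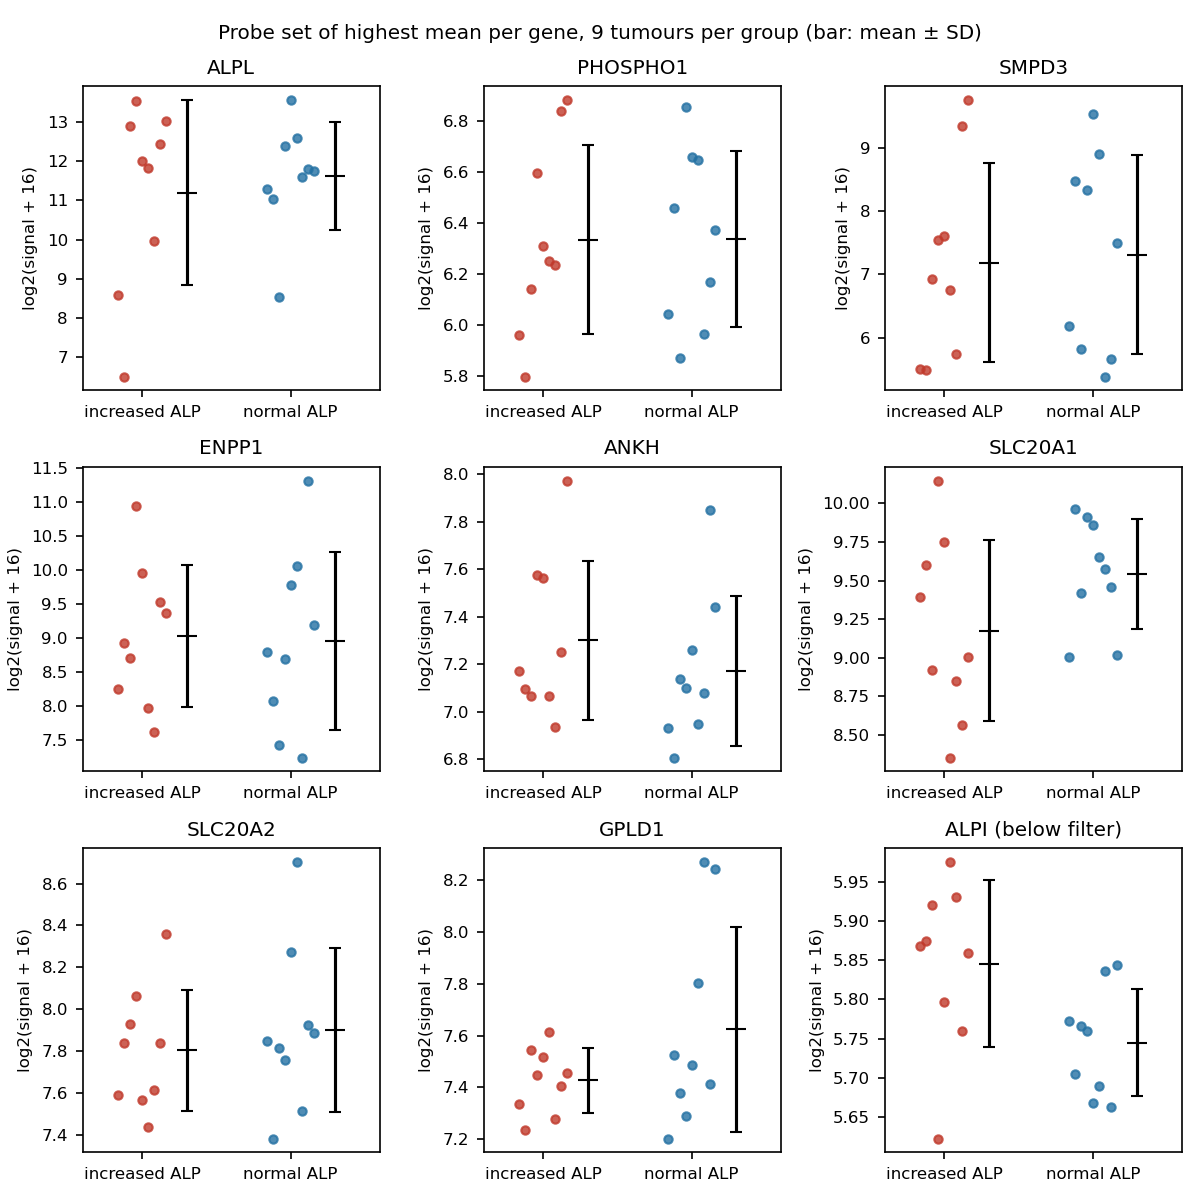
Level of each gene in every tumour, on the log2(signal + 16) scale, at the probe set of highest mean (each panel has its own axis). Points are tumours, 9 with increased ALP in red on the left and 9 with normal ALP in blue on the right of each panel, with mean ± SD as a bar; in every panel the groups overlap, and ALPL runs between 6.50 and 13.57 while ALPI stays between 5.62 and 5.98.

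The enzymes of the matrix vesicle, SMPD3 and PHOSPHO1, covered much the same range in both groups. SMPD3 had values of 5.49, 6.92 and 9.75 (lowest, median, highest) with increased ALP, against 5.38, 7.49 and 9.53 with normal ALP. Its standard deviation over the 18 tumours was 1.52, at percentile 99.0 of all probe sets tested, and its lowest values lay below the filter, where a fold of signal has no firm base. PHOSPHO1 stood at 5.80, 6.25 and 6.89 with increased ALP, against 5.87, 6.37 and 6.86 with normal ALP. It was dim, close to the filter at 6.15, with a standard deviation of 0.35 at percentile 47.2. The same tumours were low in both: increased ALP replicates 2 and 1 and normal ALP replicate 3, the 3 lowest in ALPL, were also the 3 lowest in PHOSPHO1 (5.80, 5.96 and 5.87) and stood at 5.49, 5.50 and 5.82 for SMPD3.

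On the pyrophosphate side, ENPP1 varied widely and ANKH little. ENPP1 had values of 7.62, 8.93 and 10.95 with increased ALP, against 7.24, 8.79 and 11.32 with normal ALP, an 18.7-fold span of signal and a standard deviation at percentile 97.4. Increased ALP replicate 4 (10.95) and normal ALP replicate 8 (11.32) were the highest, so both groups reached high values. ANKH at its probe set of highest mean stood at 6.94, 7.17 and 7.97 with increased ALP, against 6.81, 7.10 and 7.85 with normal ALP. Its highest values were in increased ALP replicate 9 (7.97) and normal ALP replicate 8 (7.85). Its other probe sets lay below the filter. The probe set of highest mean gave r of 0.82 and 0.91 with them (rho 0.56 and 0.68; adjusted permutation p for r at most 0.000196). Without the 2 tumours farthest from its median these r were 0.62 and 0.77. Both weaker probe sets gave r = 0.92 and rho = 0.89 with each other.

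The phosphate transporters differed from each other. SLC20A1 reached lower in the increased ALP group. Its brighter probe set had values of 8.35, 9.01 and 10.15 with increased ALP, against 9.01, 9.58 and 9.96 with normal ALP. Its other probe set had 5.31, 6.32 and 7.70 with increased ALP, against 6.40, 7.20 and 7.85 with normal ALP. At both probe sets 6 of the 9 tumours with increased ALP lay at or below the mean with normal ALP and 3 above it, and the highest value at the brighter one was in increased ALP replicate 4. The 2 probe sets followed each other closely (r = 0.97, rho = 0.98, adjusted permutation p = 3.5e-05; r = 0.95 without the 2 farthest tumours). SLC20A2 stood at 7.44, 7.84 and 8.36 with increased ALP, against 7.38, 7.85 and 8.70 with normal ALP. Its 4 probe sets did not follow each other, with r between -0.14 and 0.36 and no pair past adjustment, so values of SLC20A2 below are those of 1 probe set.

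GPLD1 and ALPI varied little. GPLD1 stood at 7.24, 7.45 and 7.62 with increased ALP, against 7.20, 7.49 and 8.27 with normal ALP, where normal ALP replicates 7 (8.27) and 9 (8.24) lay above all other tumours. Another GPLD1 probe set also placed these 2 tumours highest, at 6.90 and 6.86, and the r of 0.76 (rho 0.24) between these probe sets became 0.01 without the pair. ALPI, below the filter, stood at 5.62, 5.87 and 5.98 with increased ALP, against 5.66, 5.76 and 5.84 with normal ALP. The whole range of ALPI over 18 tumours was 0.35, at a level where signal and background cannot be told apart without detection calls.

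Set against serum ALP, no probe set of these genes could be called different. In limma's moderated test over all 25754 probe sets with Benjamini-Hochberg adjustment, 0 were called at an adjusted p of 0.05 (0%), and so 0 of the 13 tested here. At an unadjusted p under 0.05, 494 probe sets were higher (1.92%) and 1088 lower (4.22%) over the whole array. Of the 13, 0 were higher at that level and 1 was lower, the dimmer SLC20A1 probe set. Counting signs alone, 5 of the 13 were higher and 8 lower, with a median difference of -0.10, beside 0.01 over all probe sets tested.

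ALPL was 11.20 ± 2.36 with increased ALP and 11.62 ± 1.38 with normal ALP (SD, n = 9 each) at the brighter probe set. The difference of -0.42 ± 0.85 (SE) had a 95% interval of -2.19 to 1.35 (limma, adjusted p = 0.948; exact two-sided permutation p = 0.66). At the dimmer probe set ALPL was 8.60 ± 1.90 with increased ALP and 8.46 ± 1.62 with normal ALP (SD, n = 9 each). The difference there was 0.13 ± 0.77 (SE, 95% interval -1.49 to 1.75; limma, adjusted p = 0.988). The opposite signs and wide intervals left room for a fold of increased over normal ALP between 0.219 and 2.55 at the brighter and between 0.357 and 3.36 at the dimmer probe set. The sign at the brighter one turned without increased ALP replicate 2, to 0.17, and the difference became -0.81 without normal ALP replicate 3. It was -1.19 when arrays were weighted by their quality (limma, adjusted p = 0.883). With the actin difference in the fit it was -0.82, and without increased ALP replicates 3 and 6 it was -0.75. At the dimmer one it turned without any of increased ALP replicates 3, 4, 8 or 9 or normal ALP replicates 2 or 3, with a lowest value of -0.17, and it was -0.24 when arrays were weighted by their quality.

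For the others, the difference was -0.003 ± 0.16 (SE) for PHOSPHO1, -0.13 ± 0.69 for SMPD3, 0.08 ± 0.52 for ENPP1, 0.13 ± 0.15 for ANKH, -0.10 ± 0.16 for SLC20A2 and -0.20 ± 0.14 for GPLD1, at the probe set of highest mean of each gene. Their adjusted p in limma lay between 0.856 and 0.999. The 95% interval was -0.34 to 0.33 for PHOSPHO1 and -1.56 to 1.31 for SMPD3. SLC20A1 averaged 6.52 ± 0.74 with increased ALP and 7.15 ± 0.43 with normal ALP (SD, n = 9 each) at the dimmer probe set. The difference of -0.62 ± 0.27 (SE, 95% interval -1.19 to -0.06) had an unadjusted p of 0.0312 and an adjusted p of 0.766 in limma (exact permutation p = 0.0446, unadjusted). At the brighter probe set it was -0.37 ± 0.22 (SE, -0.83 to 0.10; exact permutation p = 0.129). ALPI differed by 0.10 ± 0.05 (SE; exact permutation p = 0.0313, unadjusted), with an adjusted p of 0.808 in limma without the filter, and 8 of 9 tumours with increased ALP lay above the mean with normal ALP. The remaining probe sets differed by 0.07 and 0.17 for ANKH, 0.09, 0.06 and 0.005 for SLC20A2, and -0.11 and 0.04 for GPLD1, with exact permutation p between 0.0607 and 0.948, unadjusted.

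ALPI correlated past adjustment with a measure of the RNA and with the spike-in signal, while SLC20A1 had r of opposite sign that missed adjustment. Over the 18 tumours the actin 3' to middle difference gave r = -0.52 (rho -0.47, permutation p = 0.0284, adjusted p = 0.153 over 27 relations) with SLC20A1 and r = 0.69 (rho 0.69, permutation p = 0.00152, adjusted p = 0.0205) with ALPI. The BioB signal gave r = -0.52 with SLC20A1 (adjusted permutation p = 0.145) and 0.65 with ALPI (adjusted permutation p = 0.0205). With the actin difference in the fit, the differences were -0.12 and -0.05 at the SLC20A1 probe sets and 0.02 for ALPI. Without increased ALP replicates 3 and 6 they were -0.41, -0.21 and 0.07. The part of these measures in the differences was not tested further. ALPL gave r = 0.01 (rho -0.01) with the actin difference and 0.04 (rho -0.31) with the BioB signal. With the BioB signal, PHOSPHO1, SMPD3 and ENPP1 gave r of -0.36, -0.31 and -0.34 (adjusted permutation p at least 0.522). Their rho with it were -0.54, -0.53 and -0.52.

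**Figure D2:**
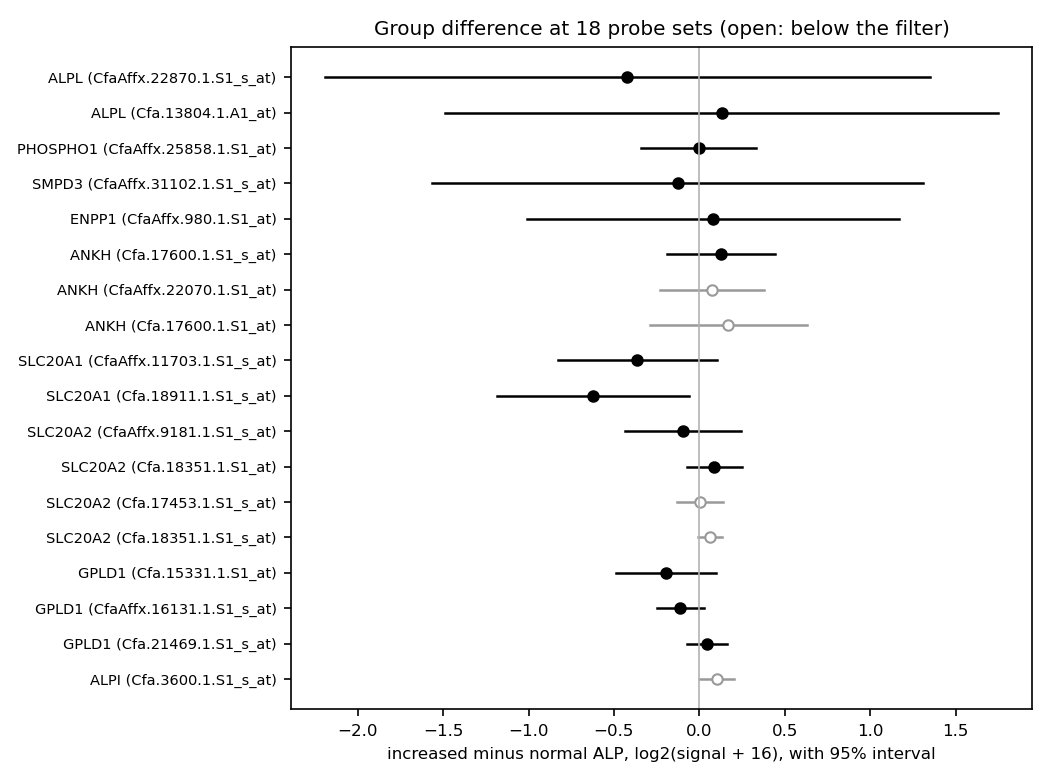
Difference between the groups at each of the 18 probe sets, increased minus normal ALP on the log2(signal + 16) scale, as a point with its 95% interval from limma. Open grey points lie below the filter; the interval excludes 0 at the dimmer SLC20A1 probe set, where it runs from -1.19 to -0.06, and ALPL has the widest interval, -2.19 to 1.35.

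From tumour to tumour, within each serum ALP group, several of these genes varied together. ALPL and PHOSPHO1, which free phosphate, and SMPD3, which supplies the phosphocholine that PHOSPHO1 uses, formed a positively correlated trio. In the matrix vesicle pair, PHOSPHO1 and SMPD3 followed each other with r = 0.91 and rho = 0.91 (permutation p = 1e-05 for each, the smallest possible; adjusted p = 0.00036 over 36 pairs of 9 genes). Without the 2 tumours farthest from the PHOSPHO1 median, r was again 0.91. It was 0.93 among the tumours with increased ALP (exact permutation p = 0.000466) and 0.90 among those with normal ALP (exact permutation p = 0.00306).

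ALPL followed PHOSPHO1 with r = 0.74 and rho = 0.76 (permutation p = 0.00023 and 0.00047; adjusted p = 0.00414 and 0.00846 over the 36 pairs). Without increased ALP replicate 2 and normal ALP replicate 3, the tumours farthest from the ALPL median, r was 0.62 (permutation p = 0.00758). Within the groups it was 0.78 with increased ALP (exact permutation p = 0.0139) and 0.73 with normal ALP (exact permutation p = 0.014). With SMPD3, ALPL gave r = 0.67 and rho = 0.73 (permutation p = 0.00157 and 0.00073; adjusted p for r = 0.0162), with 0.65 without the same 2 tumours. The value was 0.74 with increased ALP (exact permutation p = 0.0232) and 0.61 with normal ALP (exact permutation p = 0.0572). These 3 relations stayed past adjustment under every alternative run, including each array left out in turn, with r between 0.62 and 0.93.

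The trio was not uniform. Normal ALP replicates 7 and 8 had ALPL at 11.59 and 11.81, in the middle of the series, with SMPD3 at 5.38 and 5.66, as low as in the tumours of lowest ALPL. Below an ALPL of 10 no tumour had SMPD3 over 5.82. At the upper end, increased ALP replicate 9 was highest for PHOSPHO1 (6.88) and SMPD3 (9.75) and the third highest for ALPL (13.03).

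**Figure D3:**
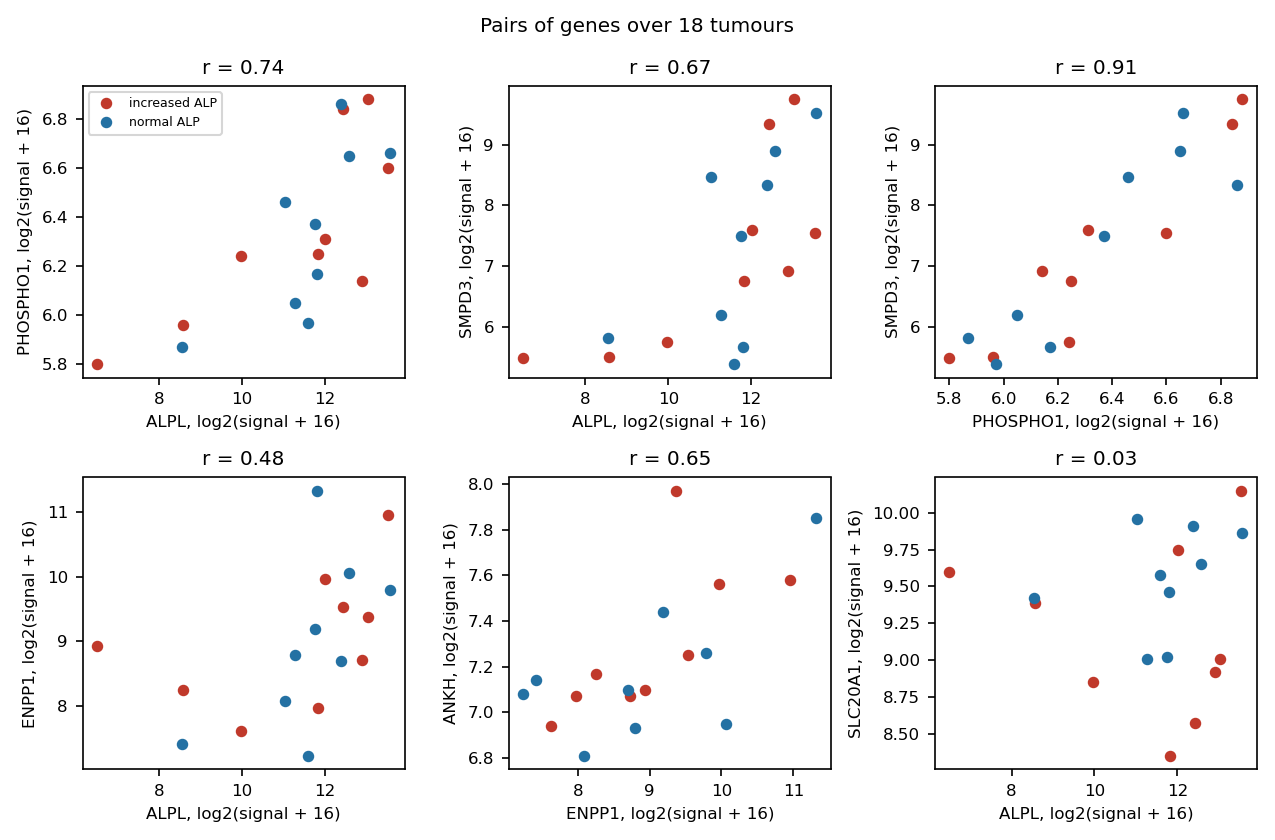
Levels of 6 pairs of genes, each axis in log2(signal + 16), with 1 point per tumour, increased ALP in red and normal ALP in blue. PHOSPHO1 and SMPD3 lie along a line (r = 0.91) on which both groups mix, ALPL follows each of them less closely (0.74 and 0.67), and ALPL with SLC20A1 gives a scatter with r = 0.03.

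ENPP1, which makes what ALPL removes, correlated positively with ALPL, past adjustment or not depending on the probe set and the coefficient. With the brighter ALPL probe set r was 0.48 (permutation p = 0.042, adjusted p = 0.107 over the 28 relations of ALPL with 16 probe sets and 12 marker lists) and rho was 0.60 (permutation p = 0.00956, adjusted p = 0.0297). With the dimmer one r was 0.70 (adjusted permutation p = 0.00488). ENPP1 and ANKH, both on the pyrophosphate side, gave r = 0.65 and rho = 0.59 (permutation p = 0.00347 and 0.0108; adjusted p = 0.025 for r), which was 0.45 (permutation p = 0.0777) without increased ALP replicate 4 and normal ALP replicate 8. Leaving out normal ALP replicate 8 alone gave 0.54 (adjusted permutation p = 0.0908), and leaving out increased ALP replicate 4, 6 or 7 also brought its adjusted p above 0.05.

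SLC20A1 was not seen to follow ALPL, and for SLC20A2 this depended on the probe sets of both genes. SLC20A1 gave r = 0.03 with ALPL (rho 0.16, permutation p = 0.904, adjusted p = 0.906) and r between 0.05 and 0.30 with PHOSPHO1, SMPD3, ENPP1 and ANKH. SLC20A2 gave r = 0.39 with the brighter ALPL probe set (rho 0.62; adjusted permutation p = 0.227 for r and 0.0297 for rho) and 0.69 with the dimmer one (adjusted permutation p = 0.00488). The other SLC20A2 probe sets gave r between 0.09 and 0.12 with the brighter ALPL probe set and between -0.03 and 0.28 with the dimmer one. GPLD1 gave r = 0.29 with ALPL (adjusted permutation p = 0.353).

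ALPI, at its low level, correlated inversely with SLC20A1 (r = -0.69, rho = -0.68, permutation p = 0.0018, adjusted p = 0.0162) and with ENPP1 (r = -0.63, rho = -0.57, permutation p = 0.00534, adjusted p = 0.032). With the actin difference removed the first became -0.54 (adjusted permutation p = 0.108), and without increased ALP replicate 6, which had the highest ALPI and the lowest SLC20A1, it was -0.60 (adjusted permutation p = 0.0688). The second became -0.42 (permutation p = 0.103) without increased ALP replicate 4 and normal ALP replicate 8. In all, 6 of the 36 pairs passed adjustment, and the count was 3 when increased ALP replicate 4, increased ALP replicate 6, or increased ALP replicates 3 and 6 together were left out. Only the 3 pairs among ALPL, PHOSPHO1 and SMPD3 passed in every alternative run.

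**Figure D4:**
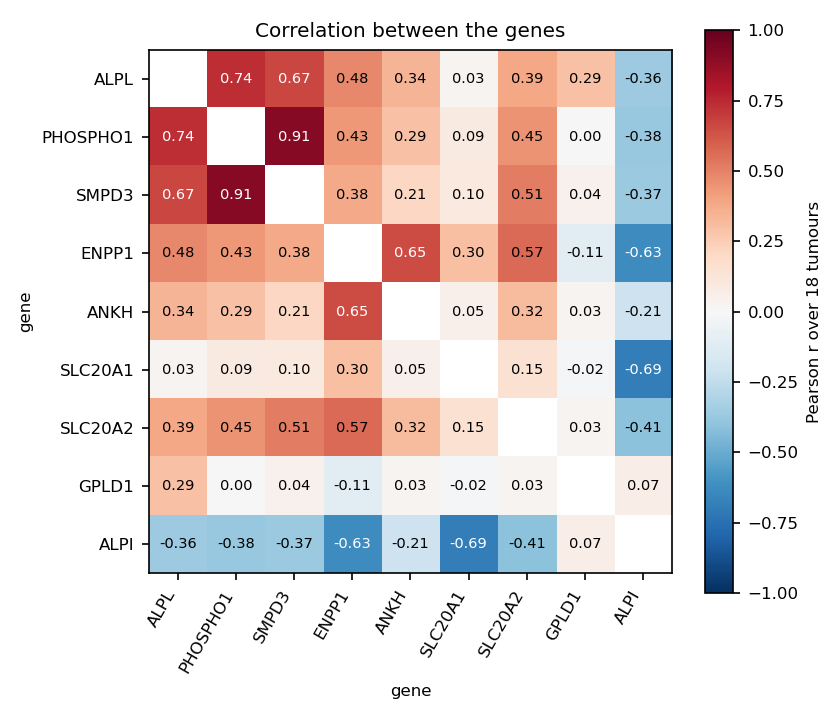
Pearson r over 18 tumours between the 9 genes, taken at their probe sets of highest mean, printed in each cell and coloured from -1 (blue) to 1 (red). The ALPL, PHOSPHO1 and SMPD3 cells at the upper left hold 0.67 to 0.91, ENPP1 with ANKH holds 0.65, and the ALPI row is negative with every gene but GPLD1.

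Where ALPL was high, several of the genes that mark bone-forming and bone-resorbing cells were high as well. A list level is a tumour's deviation from the average tumour, averaged over the measured genes of a marker list. The deviations were not scaled, so genes of wide range weigh most in a level. In the osteoblast list IBSP ran from 4.85 to 14.21, and COL1A2 only from 14.59 to 15.09. The level of the osteoblast list (8 of 10 genes measured) ran from -1.27 to 1.37 with increased ALP and from -1.27 to 0.84 with normal ALP. ALPL followed it with r = 0.81 and rho = 0.84 (permutation p = 1e-05 for each, the smallest possible; adjusted p = 0.00028 over the 28 relations), with 0.76 without the 2 farthest tumours, 0.84 with increased ALP (exact permutation p = 0.00224) and 0.81 with normal ALP (exact permutation p = 0.00166). Of its 8 genes 5 had r of 0.5 or higher with ALPL, led by IBSP (bone sialoprotein) and RUNX2 (the osteoblast transcription factor, r = 0.69). COL1A1, COL1A2 and SPARC, which fibroblasts also make, gave r of -0.19, 0.04 and 0.08.

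The osteoclast list (7 of 10 measured) ran from -2.19 to 1.21 with increased ALP and from -2.22 to 1.65 with normal ALP. Its r with ALPL was 0.75 and rho 0.77 (permutation p = 0.00037 and 0.00031; adjusted p = 0.00345 for r), with 0.68 without the 2 farthest tumours, 0.79 with increased ALP (exact permutation p = 0.0126) and 0.80 with normal ALP (exact permutation p = 0.00399). MMP9, a matrix protease, and ACP5, the tartrate-resistant acid phosphatase of osteoclasts, led it at r = 0.80 and 0.78. These genes and ATP6V0D2 (r = 0.73) had the widest ranges in the osteoclast list and so weighed most in its level. Of its 7 genes 4 had r of 0.5 or higher with ALPL, with a median of 0.51. TCIRG1, CTSK and ITGB3 gave 0.48, 0.44 and 0.41. The cell division list (5 of 8 measured) gave r = 0.64 and rho = 0.61 (permutation p = 0.00771 and 0.00876; adjusted p = 0.036 for r), which was 0.52 without the 2 farthest tumours and then missed adjustment (adjusted permutation p = 0.11), as it did over the 108 relations of 9 genes with 12 lists (adjusted permutation p = 0.0555). Its level ran from -0.66 to 0.56 with increased ALP and from -1.94 to 0.94 with normal ALP.

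Lists of fibroblast, smooth muscle and pericyte genes ran the opposite way. The fibroblast list (8 of 8 measured) gave r = -0.57 and rho = -0.61 with ALPL (permutation p = 0.0107 and 0.00811; adjusted p = 0.043 for r). It was -0.83 with increased ALP (exact permutation p = 0.00825) and -0.28 with normal ALP (exact permutation p = 0.519), a difference that was not tested, and -0.51 without the 2 farthest tumours. The list of smooth muscle and pericyte genes (7 of 7 measured) gave r = -0.56 and rho = -0.53 (permutation p = 0.0135 and 0.0255; adjusted p = 0.0471 for r), and -0.44 without them (permutation p = 0.0814). The fibroblast list missed adjustment in 12 of the 18 fits that left out 1 array (adjusted permutation p up to 0.0813), and the smooth muscle and pericyte list in 13 of 18 (up to 0.158). Over the 108 relations, both also missed it (adjusted permutation p = 0.0683 and 0.0766). Their levels ran from -0.75 to 0.96 and from -1.10 to 1.23 with increased ALP, and from -0.59 to 0.86 and from -1.26 to 1.92 with normal ALP. The other 6 lists of sufficient size (cartilage, endothelial, macrophage, neutrophil, fat cell and skeletal muscle) gave r between -0.52 and 0.11 with ALPL, with adjusted permutation p of at least 0.0781. The macrophage list gave -0.76 with increased and 0.27 with normal ALP (exact permutation p = 0.0136 and 0.481). The cartilage list gave 0.40 and -0.64 (exact permutation p = 0.282 and 0.0722). These differences were not tested. Of the 8 macrophage genes 1 had r of 0.5 or higher with ALPL (CD68, 0.64) and 3 had -0.5 or lower.

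The liver list gave r = -0.69 and rho = -0.73 (permutation p = 0.00114 and 0.00095; adjusted p = 0.00798 for r), and -0.73 without the 2 farthest tumours. Only 4 of its 8 genes passed the filter, and ALB, TTR, FGB and CPS1, which define liver cells, did not. The list level ran from -0.44 to 0.57 with increased ALP and from -0.41 to 0.21 with normal ALP. Of the 4, APOA1 (r = -0.56) and SERPINA1 (r = -0.43), which cells outside the liver also make, had the lowest r, and AHSG gave 0.19. The part of cell mixture in any relation of ALPL with these genes was not tested.

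Beside ALPL, the osteoblast list level correlated past adjustment with PHOSPHO1 (r = 0.77, rho = 0.79, permutation p = 0.0004), ENPP1 (r = 0.75, rho = 0.75, permutation p = 0.00026) and SMPD3 (r = 0.74, rho = 0.78, permutation p = 0.00078). Their adjusted p over 108 relations of 9 genes with 12 lists were 0.00972, 0.00972 and 0.014. Without the 2 tumours farthest from each gene's median these r were 0.78, 0.83 and 0.72. Within the groups, that of SMPD3 was 0.90 with increased ALP (exact permutation p = 0.000615) and 0.57 with normal ALP (exact permutation p = 0.116). SLC20A1 and GPLD1 gave 0.01 and 0.04 with the same list (adjusted permutation p = 0.98 and 0.95), and ANKH 0.51 (adjusted permutation p = 0.128). Over all 108 relations 11 passed. Beyond those of ALPL and of the osteoblast list, the osteoclast list passed with PHOSPHO1 (r = 0.64) and ENPP1 (0.71). The liver list passed with ENPP1 (-0.74), SLC20A2 (-0.64) and ALPI (0.67). Their adjusted permutation p lay between 0.00972 and 0.0433. PHOSPHO1 with the osteoclast list and SLC20A2 with the liver list missed adjustment in 11 and 9 of the 18 fits that left out 1 array. ALPI with the liver list missed it in 5 of these 18 fits (adjusted permutation p up to 0.0832). Its r was 0.54 without the 2 tumours farthest from the ALPI median. Leaving out each array in turn gave between 8 and 18 relations past adjustment, the highest without normal ALP replicate 4.

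**Figure D5:**
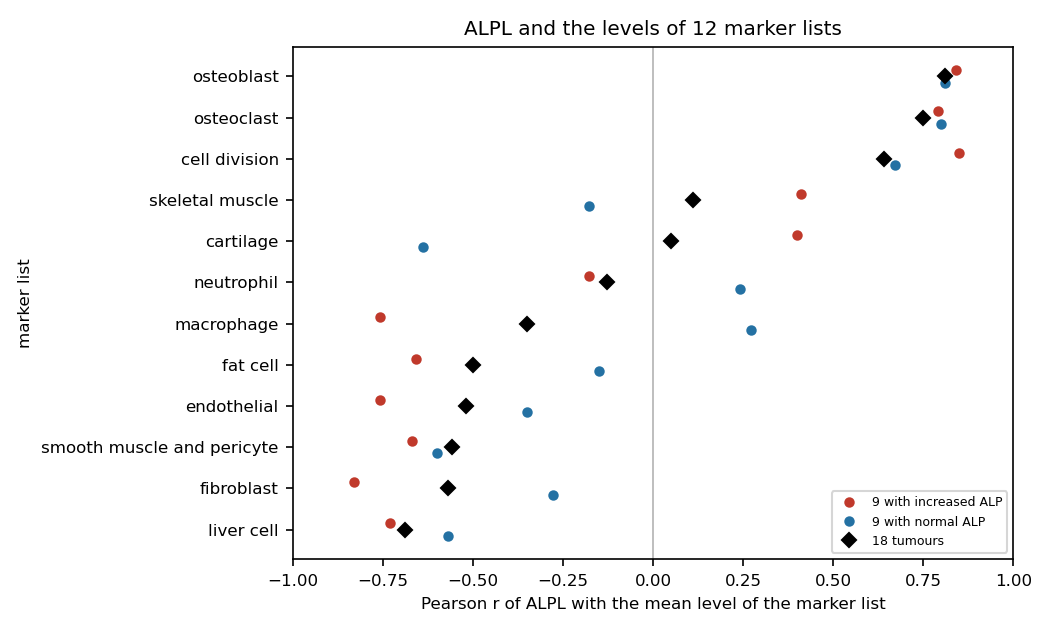
Pearson r of ALPL (brighter probe set) with the level of each of 12 marker lists, over all 18 tumours (black diamonds), among the 9 with increased ALP (red) and among the 9 with normal ALP (blue). The osteoblast and osteoclast lists lie at 0.75 to 0.84 in all 3 sets, and the liver list lies lowest over all tumours at -0.69.

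Among the 25753 other probe sets tested, 1496 had r of 0.5 or higher with ALPL (5.81%) and 1772 of -0.5 or lower (6.88%). Of the 11 probe sets of the other 7 genes above the filter, 2 reached 0.5, those of PHOSPHO1 and SMPD3, and 0 reached -0.5. The genes nearest to ALPL by r over 18 tumours were GPC4, a cell-surface proteoglycan (0.86), WIF1, a secreted Wnt inhibitor (0.86), SAMD11 (0.86), PTH1R, the parathyroid hormone receptor (0.85), and BAMBI, a decoy receptor of TGF-beta signalling (0.84). IRX5, a homeobox factor (0.84), IBSP (0.84), CPE, carboxypeptidase E (0.83), NDNF (0.82) and RANBP3L (0.82) followed. WIF1 ran from 5.47 to 13.72 and IBSP from 4.85 to 14.21, wider than the 6.50 to 13.57 of ALPL. Without the 2 tumours farthest from the ALPL median these 10 genes kept r between 0.72 and 0.87. The lowest were PPL (periplakin, -0.89), ADA (adenosine deaminase, -0.86), UGP2, which makes UDP-glucose (-0.86), XDH (xanthine dehydrogenase, -0.85) and TRIP10 (-0.84).

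PHOSPHO1 and SMPD3 shared their nearest genes. LOC606890 and ANO5, a membrane protein of the anoctamin family, gave r of 0.94 and 0.91 with PHOSPHO1 and of 0.93 and 0.96 with SMPD3. Next came GALNT3, an enzyme that begins O-glycosylation, with PHOSPHO1 (0.89) and RHBDL2, a rhomboid protease, with SMPD3 (0.89). ENPP1 was nearest to SYS1 (0.90), AHCYL1 (0.89) and the vitamin C transporter SLC23A2 (0.86), and ANKH to the nucleoside transporter SLC29A1 (0.84), the kinase MARK1 (0.84) and MBD1 (0.82). SLC20A1 was nearest to CEPT1, an enzyme of phospholipid synthesis (0.90), EML1 (0.90) and MFSD14B (0.87). SLC20A2 was nearest to DCLRE1A (0.84), SNAP91 (0.84) and ITM2C (0.83), and GPLD1 to SH3GL3 (0.85), CA2, a carbonic anhydrase (0.78), and ABCC5 (0.75). For GPLD1 the 3 values became 0.71, 0.51 and 0.61 without normal ALP replicates 7 and 9. These genes were picked as the highest of all probe sets, so the values describe likeness over these 18 tumours and carry no test.

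The other genes of mineral deposition and phosphate balance were read from a list of 35, of which 33 had a probe set and 29 passed the filter. Against serum ALP, 16 were higher and 13 lower with increased ALP, with 0 called by limma, 0 at an unadjusted p under 0.05 and a median difference of 0.03. The smallest p belonged to ABCC6, a transporter needed to keep pyrophosphate in the circulation, at 0.18 ± 0.09 (SE), GGCX, the vitamin K-dependent carboxylase, at 0.30 ± 0.23, PHEX, an endopeptidase of osteoblasts that restrains FGF23, at 0.78 ± 0.61, and SLC34A1, the renal phosphate transporter, at 0.09 ± 0.07. Their adjusted p in limma lay between 0.823 and 0.876.

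Several genes of this list followed ALPL. Of the 29, 11 had r of 0.5 or higher, beside 5.81% of all probe sets, and 1 had -0.5 or lower (ANXA2, an annexin, at -0.67), with a median r of 0.19 beside 0.0 over all probe sets. After IBSP (0.84) came DMP1, a matrix protein of osteocytes (0.66), and then ENPP2 (autotaxin), FGFR1 (a receptor for FGF23 among other ligands) and GGCX, tied at 0.65. Of these 11 genes, IBSP, DMP1, PHEX and BGLAP also stand in the osteoblast list, so the counts are not separate. The list had been drawn up with earlier results of these tumours known and is no independent evidence.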

How the data were processed

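RNA was extracted with TRIzol and biotin-labelled for 1-colour arrays, per the labels' protocols. The authors deposited log2 signals, between 2.03 and 15.09, of 43035 probe sets. MAS5 is named without a version or step, per the submitters' processing notes; the summary method and normalization are not given in the sources used here, and detection calls were not used. Their number, 9 arrays per group, limits the precision. No array was a duplicate, with at most 0.1% equal values between 2 arrays.

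Each value was made linear again, and log2(signal + 16) was computed from it. The 111 control probe sets were set aside. A mean at or above the 40th percentile (6.15) was required, and 25754 probe sets met it. Of 42924 probe sets, 29254 carried 1 symbol in the platform annotation, 439 several and 13231 were unlisted. Gene IDs of 17 of the 18 probe sets described were found in RefSeq's gene table for UU_Cfam_GSD_1.0, used for names only.

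Tumours were grouped by the labelled serum ALP concentration. Groups were compared with limma 3.58.1 in R 4.3.3 (lmFit, eBayes with trend) without covariates, two-sided, with Benjamini-Hochberg adjustment at 0.05, and by exact permutation. The labels do not say whether each tumour came from a different dog; p-values measure the spread between these samples. Correlations used 100000 permutations, and exact ones within groups (Python 3.11.15, NumPy 2.4.6, SciPy 1.17.1, pandas 2.3.3, matplotlib 3.10.9). A gene stands for its probe set of highest mean. On simulated data for this comparison in 25754 probe sets, 71% of changes of 1 and 98% of changes of 2 (log2) were called, with 4 false of 173 calls. The changed probe sets were drawn at random from all tested, with independent noise at each one's own spread. ALPL and SMPD3 varied far more than most (SD 1.89 and 1.52, against a median of 0.36), so these shares do not hold for them.

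The genes, gene lists and tests were chosen with earlier results of these data known. Named are all probe sets of the 10 genes, the 10 highest and 5 lowest by r with ALPL, the 3 highest for each other gene above the filter, and from the list of 35 the 4 of smallest p and 4 of highest r (a tie made these 5). Marker genes, ANXA2 and RUNX2 among them, were named after their values were seen. The relations among pairs of genes and of the other genes with lists were added after seeing the data. Tumour numbers shared by the labels were not used to pair the tumours in the main fit. Same-numbered deviations correlated at -0.164 to 0.27, over 0.1 for 4 of 9 numbers. Likeness of expression cannot show whether the tumours had been matched by some other trait. Alternatives were an offset of 1 or 64, a filter at the 60th percentile or none, quantile and 75th percentile scaling, eBayes without a trend, array weights, the replicate number as a block, actin or GAPDH differences as covariates or removed from correlations, within-group deviations, the other ALPL probe set, the 2 farthest tumours left out, each array left out, and, chosen after seeing the data, increased ALP replicates 3 and 6 left out.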

Additional observations from a re-analysis of the deposited data

Results flagged for a closer look

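Among the probe sets described, 4 had 1 tumour far from the others of its group, by a gap to the nearest tumour that was large against the group's whole range (chance alone gives such a gap in about 1 of 20 groups). All 18 probe sets were looked at in both groups, so some such gaps are to be expected by chance. At the brighter ALPL probe set, normal ALP replicate 3 was lowest at 8.54, with the nearest tumour of its group at 11.03. This gap, at 0.494 of the range, only just met the rule. At both weaker ANKH probe sets normal ALP replicate 8 was highest, at 6.61 with the nearest at 5.99 and at 6.89 with the nearest at 6.0. These probe sets followed each other (r = 0.92), so the gaps are not separate. At 1 SLC20A2 probe set below the filter, increased ALP replicate 6 was highest at 5.88, with the nearest at 5.56.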

How the results depend on the processing

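No probe set was called under any alternative. Results were compared by their sign and their side of the threshold, and counts by their size. Of 667 alternatives other than leaving out 1 array, 610 kept these, 27 took the result below the threshold and 2 past it. With 1 array left out, 1093 of 1224 kept these. A kept sign and side did not mean an equal size. The difference went from -0.422 to -1.186 for the brighter ALPL probe set with array weights, and from 0.079 to 0.925 for ENPP1 with the actin covariate. The sign of small differences turned for ALPL's dimmer probe set (-0.241 with array weights), PHOSPHO1 (0.034 with 75th percentile scaling, 0.133 and 0.089 with the actin and GAPDH covariates, 0.037 without increased ALP replicates 3 and 6), SMPD3 (0.171 and 0.150 with these covariates) and ENPP1 (-0.048 with array weights). It also turned for SLC20A2, at its brightest probe set (0.020 with the actin covariate) and at 1 below the filter (-0.016 with quantile normalization, -0.017 with array weights, -0.079 and -0.064 with the covariates, -0.064 without increased ALP replicates 3 and 6). The r of ALPL turned sign with SLC20A1 (-0.012 and -0.016 within groups, -0.009 and -0.002 with the GAPDH difference removed), with SLC20A2 probe sets (-0.034 and -0.030 for the other ALPL probe set, -0.025 without increased ALP replicates 3 and 6), with cartilage markers (-0.250 for the other ALPL probe set, -0.053 without the 2 farthest tumours, -0.008 without increased ALP replicates 3 and 6) and with skeletal muscle markers (-0.001 for the other ALPL probe set). The cause was not tested.

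With 1 array left out, the difference lay between -0.806 and 0.165 (brighter) and between -0.174 and 0.45 (dimmer) for ALPL, -0.071 and 0.065 for PHOSPHO1, -0.449 and 0.150 for SMPD3, -0.161 and 0.374 for ENPP1, and -0.167 and 0.003 and -0.045 and 0.030 for these SLC20A2 probe sets. The r of ALPL lay between -0.088 and 0.143 and between -0.055 and 0.162 for SLC20A1, -0.037 and 0.247 for SLC20A2, -0.109 and 0.049 for GPLD1, -0.309 and 0.283 for cartilage, -0.331 and 0.115 for neutrophil and -0.027 and 0.204 for skeletal muscle markers. Of the 28 relations of ALPL 8 passed, 5 without the 2 farthest tumours, 5 without increased ALP replicates 3 and 6, and 5 to 9 with 1 array left out (5 without increased ALP replicate 1, 3, 4 or 7 or normal ALP replicate 3). Of the 36 pairs, 3 passed without increased ALP replicates 3 and 6, and 3 to 7 with 1 array left out; of the 108 relations with lists, 8 to 18 did.

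Over the array, 1582 probe sets had an unadjusted p under 0.05 in limma, against 772 and 686 with the actin and GAPDH covariates and 849 without increased ALP replicates 3 and 6, where fewer tumours were fitted. With the replicate block 0 were called and 1677 had an unadjusted p under 0.05, ALPL differed by -0.422 and 0.131, and 0 of 9 numbers correlated best with themselves. The smallest adjusted p over the array in limma was 0.0684 with the block and 0.608 without it. For the dimmer SLC20A1 probe set the adjusted p was 0.534 with the block and 0.766 without it. The 60th percentile filter left 8 of the probe sets described. Signal over background could not be judged, so levels near the filter, ALPI and PHOSPHO1 among them, are the least certain.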
